A study of Mus musculus with 9 samples.

Results

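The interferon-inducible GTPases examined here are 10 genes of the mouse, taken by symbol from a table of 41457 genes: the immunity-related GTPases (IRG) Irgm1, Irgm2, Igtp, Iigp1, Tgtp1 and Tgtp2, and the guanylate-binding proteins (GBP) Gbp2, Gbp3, Gbp6 and Gbp7. All 10 were found and all 10 were among the 11704 genes with at least 1 TPM (transcripts per 1000000, a level corrected for gene length and library total) in at least 3 of 9 libraries. The genes were selected on their TPM values in these same libraries, with earlier results of the data known, so their differences between groups are given as a description. Calls are those of the fit over all genes and support nothing about how the genes were picked. The RNA came from PancOVA, a tumour cell line of the mouse pancreas, which had shared matrigel for 48 h with pancreatic stellate cells, the resident fibroblasts of that organ. In every group the stellate cells (the line mPSC45, in the sorted co-cultures mPSC bearing CD90.1) were first made quiescent in matrigel. In the qPSC group they stayed unprimed, in the myCAF group they received recombinant TGF-β1 at 2 ng/ml for 48 h, and in the iCAF group Tc17-conditioned medium (Tc17 being a T-cell class) for 48 h. A dye carried by the tumour cells was the basis of the sort, and each group had 3 libraries. Whether those 3 came from separate cultures is not stated, so all p-values here reflect the spread among these libraries, which may be technical. No label names a treatment with interferon, so inducibility itself was not measured.

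Interferons bind receptors that signal through Janus kinases to STAT transcription factors, and IRG and GBP genes are among the most strongly induced targets in mouse cells. Their products bind GTP and assemble on the membranes around intracellular parasites and bacteria. Within the IRG family of the mouse, Irgm1, Irgm2 and Igtp (also called Irgm3) encode regulators that sit on the cell's own membranes and hold the effectors inactive there. Iigp1 (Irga6), Tgtp1 and Tgtp2 (both Irgb6) encode effectors that load onto vacuoles holding parasites. The GBP proteins encoded by Gbp2, Gbp3, Gbp6 and Gbp7 are recruited to the same vacuoles, and Gbp7 has also been tied to autophagy and the phagocyte oxidase in mouse macrophages.

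The genes lie in clusters, given here from GENCODE M21 on GRCm38. Gbp7 (chr3:142530342-142550149), Gbp3 (chr3:142560026-142573209) and Gbp2 (chr3:142620602-142638008) follow each other on the plus strand of chromosome 3. Gbp6 (chr5:105270702-105293698, minus strand) belongs to the cluster on chromosome 5. Irgm1 (chr11:48861968-48871683), Tgtp1 (chr11:48985327-48994172) and Tgtp2 (chr11:49057194-49064206) lie on the minus strand of chromosome 11, and Igtp (chr11:58199556-58207591) and Irgm2 (chr11:58199618-58222782) lie farther along the plus strand of the same chromosome. Iigp1 lies apart from all of these. All 10 are annotated as protein-coding, with 3 to 14 exon blocks per gene.

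The promoters of members that moved together are shown because they share the letters that interferon-activated factors are known to bind. A pair of motifs was searched on both strands in the 250 bases before each annotated start in RefSeq promoters of GRCm38.p6. They were the gamma-activated site (GAS: TTC, any 3 bases, GAA; bound by STAT dimers) and the interferon-stimulated response element (ISRE: GAAA, any 2 bases, GAAA; bound by IRF proteins), which do not overlap each other in the stretches below. Of the 10 genes, 8 matched by symbol, with 9 starts because Gbp3 has 2, while Gbp6 and Iigp1 were not in the promoter table. Each stretch is printed from 5′ to 3′ on the gene's strand, with the motif letters in capitals and 12 flanking bases on each side.
Igtp, chr11:58199499-58199543, plus strand: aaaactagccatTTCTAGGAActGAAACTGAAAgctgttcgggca
Irgm2, chr11:58214890-58214934, plus strand: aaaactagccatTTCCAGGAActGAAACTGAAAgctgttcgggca
Tgtp1, chr11:48992302-48992346, minus strand: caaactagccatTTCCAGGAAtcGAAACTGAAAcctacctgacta
Tgtp2, chr11:49064261-49064305, minus strand: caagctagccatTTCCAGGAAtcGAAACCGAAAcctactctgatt
Irgm1, chr11:48871423-48871462, minus strand: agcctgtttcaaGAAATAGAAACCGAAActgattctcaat
Gbp2, chr3:142620592-142620625, plus strand: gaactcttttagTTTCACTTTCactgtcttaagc
Gbp3, chr3:142559987-142560026, plus strand: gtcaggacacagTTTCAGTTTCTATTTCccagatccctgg
Gbp7, chr3:142530218-142530304, plus strand: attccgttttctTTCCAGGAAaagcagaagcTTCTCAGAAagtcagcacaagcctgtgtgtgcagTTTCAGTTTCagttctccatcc

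In the stretches of Gbp2, Gbp3 and Gbp7 the ISRE is read on the opposite strand, so that its capitals begin with TTTC. In those of Irgm1 and Gbp3 a pair of ISRE matches overlap. An ISRE was present in 8 of the 9 members' windows and in 2.98% of all 32851 windows of the same length. A GAS was present in 5 of the 9 and in 7.02% of all windows, and both motifs in 5 of the 9 and in 0.332% of all. The second start of Gbp3 was the window with neither. Of 7 windows of other IRG and GBP genes, 3 held an ISRE, 2 a GAS and 2 both. In Igtp, Irgm2, Tgtp1 and Tgtp2 the GAS is followed after 2 bases by the ISRE. That spacing, picked out after the sequences had been seen, occurred in 5 of the 32851 windows (0.0152%), those of the 4 genes and of Gm12185, a gene model that overlaps Tgtp1. These matches describe letters and show no binding. RefSeq and GENCODE starts differ for several of the genes, and for Irgm2 and Tgtp1 the RefSeq start lies well inside the GENCODE gene.

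The libraries implied 38870560 to 45317007 reads each, recovered from the TPM steps, so counting error was small for the GTPase genes: their values rested on 412 reads (Tgtp1 in 1 myCAF library) to 8292 reads (Irgm1 in 1 qPSC library). iCAF 3 (replicate 3 of the iCAF group) stood apart, with 20.2% of its TPM in ribosomal protein genes against 13.6% to 14.5% in the other 8. The median of all tested genes was -0.15 (log2, iCAF minus qPSC) and became 0.05 once each library was centred on its own median. Without iCAF 3 that median was -0.03, against -0.20 without iCAF 1 and -0.23 without iCAF 2. The keratins Krt8 and Krt18 lay at 744 to 956 TPM in every library, while the epithelial markers Epcam, Cdh1, Cldn4, Cldn7 and Krt7 were under 1 TPM in all 9, so the tumour cells' epithelial label rested on 3 of 8 listed markers. Of 16 T cell and leukocyte markers, 15 were under 1 TPM in all libraries and Cd8a, Trac and Nkg7 were at 0. Their summed level was 6.21 to 6.97 TPM in qPSC, 4.67 to 7.38 TPM in iCAF and 5.55 to 6.31 TPM in myCAF libraries, most of it from Cd68. Fibroblast genes were present, and their values are given further below.

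Every GTPase gene of the set had its highest group mean after co-culture with quiescent stellate cells. Their summed level was 619 ± 18.3 TPM (SD, n = 3) in the qPSC group, 353 ± 34.2 TPM in the iCAF group and 393 ± 83.8 TPM in the myCAF group. The coefficient of variation between libraries was smallest in the qPSC group for all genes but Igtp and Gbp2, and ran there from 1.20% to 8.54%. For Igtp (6.29% against 6.89%) and Gbp2 (8.49% against 8.54%) it was slightly smaller in the iCAF than in the qPSC group. It ran from 6.29% to 27.5% in the iCAF and from 14.9% to 25.5% in the myCAF group.

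**Figure D1:**
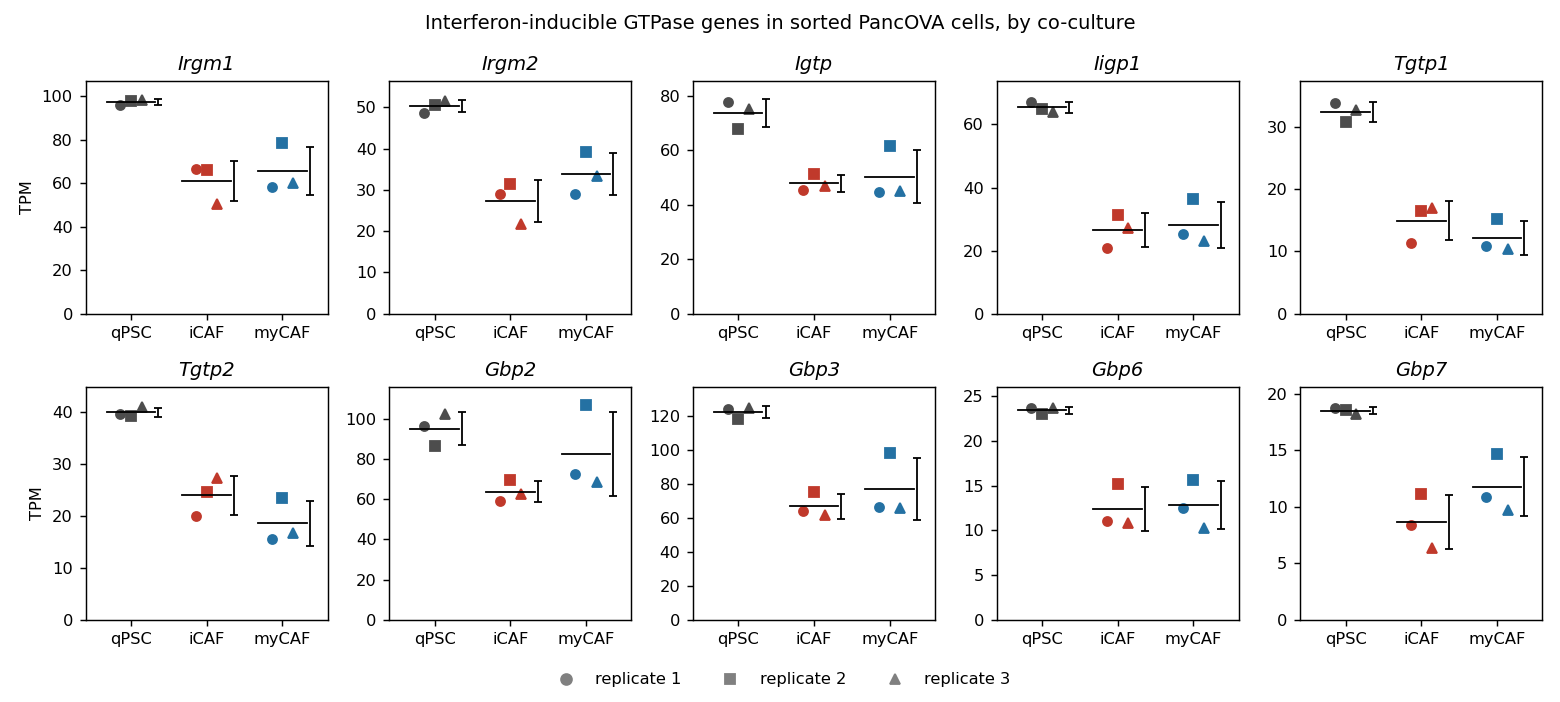
Level in TPM (vertical axis, from 0) of the 10 GTPase genes in each of the 9 libraries, by co-culture group (horizontal axis). Points are libraries, with shapes for replicate numbers, horizontal lines are group means and bars are SD (n = 3). The qPSC points lie above all iCAF points in every panel and above all myCAF points in every panel but that of Gbp2.

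Among the regulators, Irgm1, which takes part in autophagy and in holding IRG effectors inactive, was at 96.0, 97.9 and 98.2 TPM in the qPSC libraries, at 66.6, 66.1 and 50.4 TPM in the iCAF libraries and at 58.3, 78.6 and 60.0 TPM in the myCAF libraries. All 3 qPSC values lay above the other 6, and the iCAF and myCAF values overlapped. Irgm2 was at 48.7, 50.5 and 51.6 TPM with qPSC, at 28.9, 31.5 and 21.7 TPM with iCAF and at 29.1, 39.2 and 33.4 TPM with myCAF. Igtp was at 77.7, 68.0 and 75.3 TPM with qPSC, at 45.5, 51.3 and 46.9 TPM with iCAF and at 44.6, 61.6 and 45.0 TPM with myCAF. For both genes the qPSC libraries were again the highest 3, and in the myCAF group replicate 2 stood above the others. The gene models of Igtp and Irgm2 overlap on the same strand and share 162 exon bases, and 11.8% and 7.77% of their 50-base windows also occur in another gene, so a small part of their reads could be placed on either.

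Among the effectors, Iigp1, on the plus strand of chromosome 18 (chr18:60376027-60392634), was at 67.3, 65.0 and 64.0 TPM in the qPSC libraries, at 20.7, 31.4 and 27.2 TPM in the iCAF libraries and at 25.2, 36.3 and 22.9 TPM in the myCAF libraries. Its lowest qPSC value was well above its highest value elsewhere, 36.3 TPM in myCAF 2. Only 1.69% of its 50-base windows are shared with another gene in the GENCODE M21 model, whose length did not give whole reads for this gene.

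Tgtp1 was at 33.9, 30.7 and 32.7 TPM with qPSC, at 11.3, 16.4 and 17.0 TPM with iCAF and at 10.9, 15.2 and 10.3 TPM with myCAF. Tgtp2 was at 39.7, 39.2 and 41.0 TPM with qPSC, at 20.0, 24.7 and 27.3 TPM with iCAF and at 15.6, 23.6 and 16.7 TPM with myCAF. For both the qPSC libraries were the highest 3 and the means of the myCAF group were the lowest. These genes are near-copies: 81.2% of the 50-base windows of Tgtp1 and 86.6% of those of Tgtp2 occur in another gene, mostly in each other, so the split of reads between them is uncertain. Their sum, which depends on that split only through the unequal lengths of the models, was 72.4 ± 2.14 TPM in the qPSC, 38.9 ± 6.76 TPM in the iCAF and 30.7 ± 6.96 TPM in the myCAF group (SD, n = 3).

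Of the GBP genes, Gbp3 had the highest mean in the qPSC group (124, 119 and 125 TPM) and in the iCAF group (63.9, 75.3 and 61.6 TPM). It was at 66.8, 98.3 and 66.1 TPM with myCAF, where the mean of Gbp2 was higher. Gbp2, whose product is anchored in membranes by a lipid, was at 96.6, 86.3 and 102 TPM with qPSC, at 59.2, 69.8 and 62.4 TPM with iCAF and at 72.5, 107 and 68.4 TPM with myCAF. Gbp2 was the exception among the 10 genes, because its value in myCAF 2 exceeded all 3 qPSC values.

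Gbp6 was at 23.7, 23.0 and 23.6 TPM with qPSC, at 11.1, 15.2 and 10.9 TPM with iCAF and at 12.5, 15.6 and 10.3 TPM with myCAF. Gbp7 was at 18.7, 18.6 and 18.2 TPM with qPSC, at 8.38, 11.1 and 6.40 TPM with iCAF and at 10.9, 14.7 and 9.69 TPM with myCAF. In both genes the qPSC values were tight and lay above the rest. Gbp6 shares 70.7% of its 50-base windows with other genes, mainly the gene model Gm43302, which was at 0 to 0.172 TPM, and Gbp10, which was at 0 to 0.239 TPM. The corresponding share was 12.7% for Gbp7, 3.75% for Gbp3, 2.03% for Gbp2 and 0.310% for Irgm1.

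TPM being a level per length, the 10 genes can also be ordered among themselves. In the qPSC group the means ran from Gbp3 (123 TPM) through Irgm1, Gbp2, Igtp, Iigp1, Irgm2, Tgtp2, Tgtp1 and Gbp6 down to Gbp7 (18.5 TPM). Only Irgm1 and Gbp2 overlapped there with their neighbour in the order. In the iCAF group the order began with Gbp3, Gbp2, Irgm1 and Igtp and ended with Gbp6 and Gbp7, and in the myCAF group Gbp2 led at 82.5 TPM. Most neighbours overlapped in both primed groups. The steps without overlap were those from Igtp to Irgm2 in both groups and from Tgtp2 to Tgtp1 in the iCAF group.

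The first comparison sets tumour cells grown with iCAF against those grown with quiescent stellate cells. All 10 genes had lower values in all 3 iCAF libraries than in any qPSC library, an arrangement found for 23.2% of all tested genes. Limma on log2(TPM + 1) with Benjamini-Hochberg adjustment over all tested genes called 4 of the 10 lower and 0 higher, where 0.598% of all genes were called lower and 0.0% higher. The differences of the 10 genes ran from -1.29 to -0.57 on the log2(TPM + 1) scale, with a median of -0.87 against -0.15 for all genes.

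Iigp1 had the largest difference and fell by 1.29 ± 0.18 (log2, SE), or 2.45-fold on that scale, with an adjusted p of 0.0223 in limma. Tgtp1 fell by 1.09 ± 0.18 (limma, adjusted p = 0.0383), Irgm2 fell by 0.87 ± 0.15 (limma, adjusted p = 0.0410) and Gbp3 fell by 0.87 ± 0.15 (limma, adjusted p = 0.0424). The other 6 genes did not pass the threshold of 0.05. Closest to it were Gbp7, at -1.05 ± 0.19, and Gbp6, at -0.88 ± 0.16, with limma adjusted p-values of 0.0532 and 0.0534. Irgm1 stood at -0.68 ± 0.14 and Igtp at -0.61 ± 0.13, with limma adjusted p-values of 0.0741 and 0.0835. Tgtp2 stood at -0.72 ± 0.16 and Gbp2 at -0.57 ± 0.16, with limma adjusted p-values of 0.104 and 0.190.

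These calls sat close to the threshold and several libraries decided them. Without any 1 qPSC library 0 of the 10 and 0 of all 11704 genes were called, and without iCAF 1 0 of the 10 (0.0342% of all genes called lower). Without myCAF 1 or myCAF 3 only Iigp1 was called (0.282% and 0.197% of all genes). The count was 6 without iCAF 2, 8 without iCAF 3 and 10 without myCAF 2, where 1.6%, 1.38% and 0.897% of all genes were called lower. With only the 6 libraries of this comparison 2 were called, Gbp3 and Iigp1 (0.256% of all genes). The direction was negative in all of these fits. With the libraries centred on their median the members' median was -0.67, and no member was called, against 24 of all 11704 genes.

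**Figure D2:**
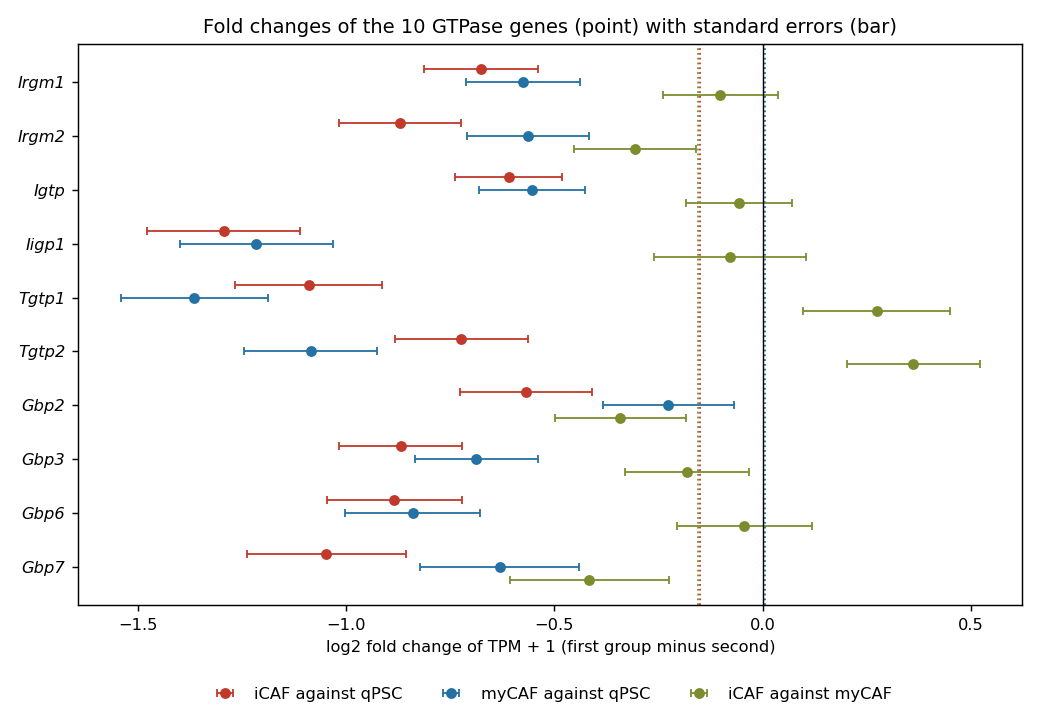
Log2 fold change of TPM + 1 (horizontal axis, first group minus second) of the 10 genes (vertical axis) in the 3 comparisons, as points with standard errors from limma. Dotted lines are the medians of all tested genes, and comparisons against qPSC share the qPSC libraries. All 20 points against qPSC lie below 0, and 8 of the 10 for iCAF against myCAF do; with libraries centred on their median 5 of those 8, for Gbp3, Gbp6, Irgm1, Igtp and Iigp1, lie above 0.

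The second comparison asks the same of co-culture with myCAF. It shares the 3 qPSC libraries with the first, so the pair of comparisons are not independent. All 10 genes again had lower means than in the qPSC group, and for 9 of them, all but Gbp2, all 3 myCAF values lay below all 3 qPSC values, as for 12.5% of all tested genes. Limma called 0 of the 10 genes, and 0.0% of all genes in either direction, so the comparison had no call in the whole table. At an unadjusted p under 0.05, 9 of the 10 genes and 3.77% of all genes were lower, and 0 of the 10 and 2.67% of all were higher. A limma-voom fit of implied reads gave 0 calls among the 10 and 0 among all genes as well. The members' median was -0.66 against 0.01 for all genes.

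Tgtp1 had the largest difference, -1.36 ± 0.18 (log2, SE), or 2.57-fold lower on the log2(TPM + 1) scale, with an adjusted p of 0.0683 in limma. Iigp1 stood at -1.22 ± 0.18 and Tgtp2 at -1.09 ± 0.16, with limma adjusted p-values of 0.0834 and 0.0760. Gbp6 stood at -0.84 ± 0.16, Gbp3 at -0.69 ± 0.15 and Gbp7 at -0.63 ± 0.19. Irgm1, Irgm2 and Igtp stood at -0.58 ± 0.14, -0.56 ± 0.15 and -0.55 ± 0.13. The limma adjusted p-values of these 6 genes ran from 0.163 to 0.389. Gbp2 had the smallest difference, -0.23 ± 0.16, with a 95% interval from -0.58 to 0.13. The count of called genes differed between sets of libraries. With only the 6 libraries of the comparison 8 of the 10 were called (1.9% of all genes called lower). Without iCAF 3 the count was again 8 (1.79% of all genes called lower), without myCAF 2 it was 5 (0.154% of all genes), without iCAF 2 it was 1 (0.0769%), and without any other 1 library it was 0 (at most 0.00854%).

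The third comparison, iCAF against myCAF, tests whether the primed groups differ from each other, which the calls against qPSC do not show. Limma called 0 of the 10 genes here and called 0.0598% of all genes lower and 0.0% higher. At an unadjusted p under 0.05, 1 of the 10 was higher, Tgtp2, as were 2.43% of all genes. Limma-voom called 0 of the 10 and 1 of all genes. The intervals show what size of difference the libraries allow. Tgtp2 was higher in the iCAF group by 0.36 (log2, 95% interval 0.0024 to 0.72, limma adjusted p = 0.277) and Tgtp1 by 0.27 (-0.12 to 0.67), in all settings tried. The other 8 genes had negative values as deposited. The most negative was Gbp7, at -0.42 (-0.85 to 0.01), followed by Gbp2 at -0.34 (-0.70 to 0.01) and Irgm2 at -0.31 (-0.64 to 0.02). Gbp3, Irgm1, Iigp1, Igtp and Gbp6 lay between -0.18 and -0.04, and all 5 turned positive, up to 0.16, with libraries centred on their median. For every member the iCAF and myCAF values overlapped, while 18.3% of all tested genes were lower and 4.55% higher without overlap.

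The order of the libraries within a group differed between groups. In the myCAF group replicate 2 had the highest value for 10 of 10 genes. In the iCAF group replicate 2 was highest for 7 genes, whereas iCAF 3 was highest for Tgtp1 and Tgtp2 and lowest for Gbp3, Gbp6, Gbp7, Irgm1 and Irgm2. In the qPSC group the libraries were close, and replicates 1 and 3 were highest for 5 genes each. Averaged over the 10 genes, the level relative to each gene's own mean was 0.50 to 0.57 (log2) in the qPSC libraries. It was -0.42, -0.13 and -0.40 in iCAF 1, 2 and 3 and -0.37, 0.09 and -0.41 in myCAF 1, 2 and 3.

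**Figure D3:**
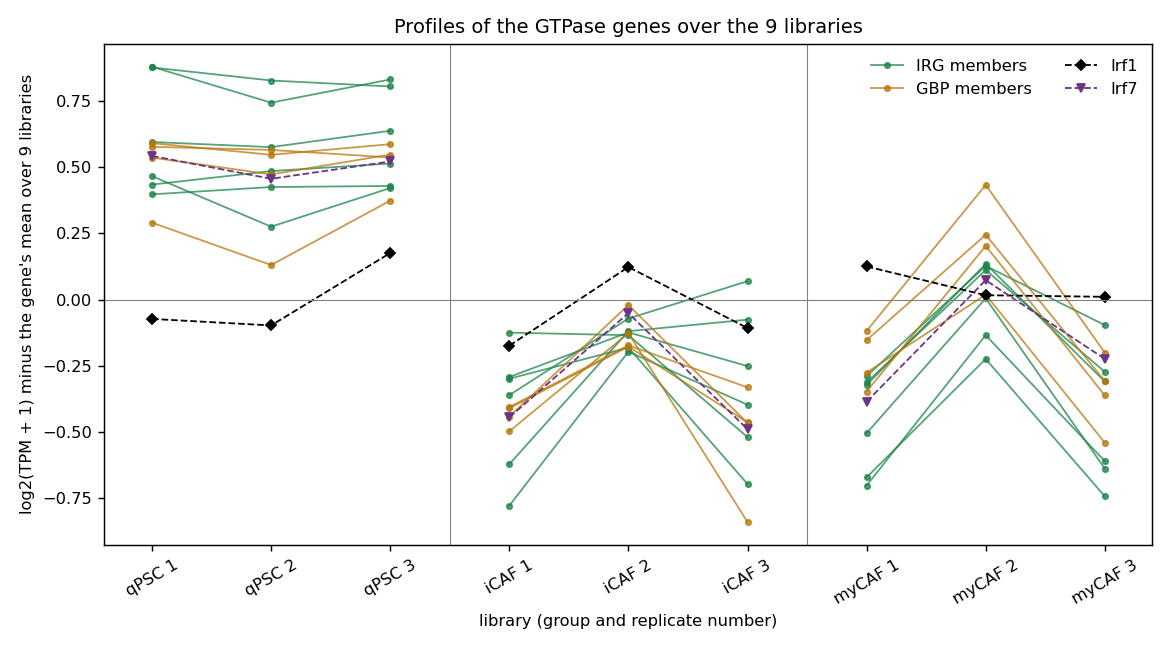
Log2(TPM + 1) of each GTPase gene minus its own mean over the 9 libraries (vertical axis) in each library (horizontal axis), with lines joining the libraries of a group only to guide the eye. Green lines are IRG genes, brown lines GBP genes, and dashed lines are Irf1 and Irf7; myCAF 2 and iCAF 2 stand above most values of their groups, Irf7 runs with the GTPase genes and Irf1 stays between -0.17 and 0.18.

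Fibroblast genes also differed between the libraries, and not all in the same direction. Decorin (Dcn), a matrix proteoglycan of fibroblasts, was at 81.2, 99.7 and 134 TPM in the qPSC libraries, at 27.6, 50.2 and 26.5 TPM in the iCAF libraries and at 214, 59.0 and 126 TPM in the myCAF libraries. Col1a1, a collagen chain, was at 54.0, 57.9 and 69.9 TPM with qPSC, at 47.2, 72.9 and 28.8 TPM with iCAF and at 155, 68.2 and 158 TPM with myCAF. Both were named after their values were seen. Of 18 listed fibroblast markers 14 were tested, and none was at 0 in all libraries. The 4 under 1 TPM in every library were Col1a2, Lum, Fap and Tagln. Col1a2, another collagen chain, was at 0.175 to 0.279 TPM, unlike Col1a1. Of the 14, 9 were lowest in myCAF 2 within the myCAF group and 11 were highest in iCAF 2 within the iCAF group. The summed level of the list ran the other way, being highest in myCAF 2 (9643 TPM against 9480 and 9357 TPM in myCAF 1 and 3) and lowest in iCAF 2 (9735 TPM against 9964 and 10430 TPM in iCAF 1 and 3). It was 8584 to 9003 TPM in the qPSC libraries, and most of it came from S100a4 and Vim, which tumour cells can also express. The median of the 14 was -0.38 for iCAF against qPSC, with 10 negative values, and 0.22 for myCAF against qPSC, with 3 negative values. Limma called 0 of the 14 in either comparison against qPSC. It called 1, Postn, lower in iCAF than in myCAF (0.0598% of all genes). In bulk RNA, fewer fibroblasts in the sort, less RNA per fibroblast and expression of listed markers by the tumour cells cannot be told apart. The part of fibroblast RNA in the GTPase values was not tested. The part of iCAF 3's ribosomal share was not tested either.

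Some proportions within the family differed between groups. These ratios were picked after the values had been seen, and a ratio within a library shows only that its members changed unequally. The sum of Tgtp1 and Tgtp2 over Gbp2 was 0.762, 0.810 and 0.720 in the qPSC libraries, 0.529, 0.589 and 0.709 in the iCAF libraries and 0.365, 0.363 and 0.394 in the myCAF libraries. The 3 groups did not overlap in this ratio, and its lowest values were in the myCAF group, including myCAF 2. Iigp1 over Gbp2 was 0.625 to 0.753 with qPSC, 0.349 to 0.451 with iCAF and 0.334 to 0.348 with myCAF. Gbp5 over Gbp2 took another order, at 0.0468 to 0.0506 with qPSC, 0.0236 to 0.0254 with iCAF and 0.0308 to 0.0354 with myCAF. Tgtp1 over Tgtp2 was 0.784 to 0.852 with qPSC and 0.566 to 0.700 in the other 6 libraries, a ratio that depends on how reads were split between the near-copies.

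**Figure D4:**
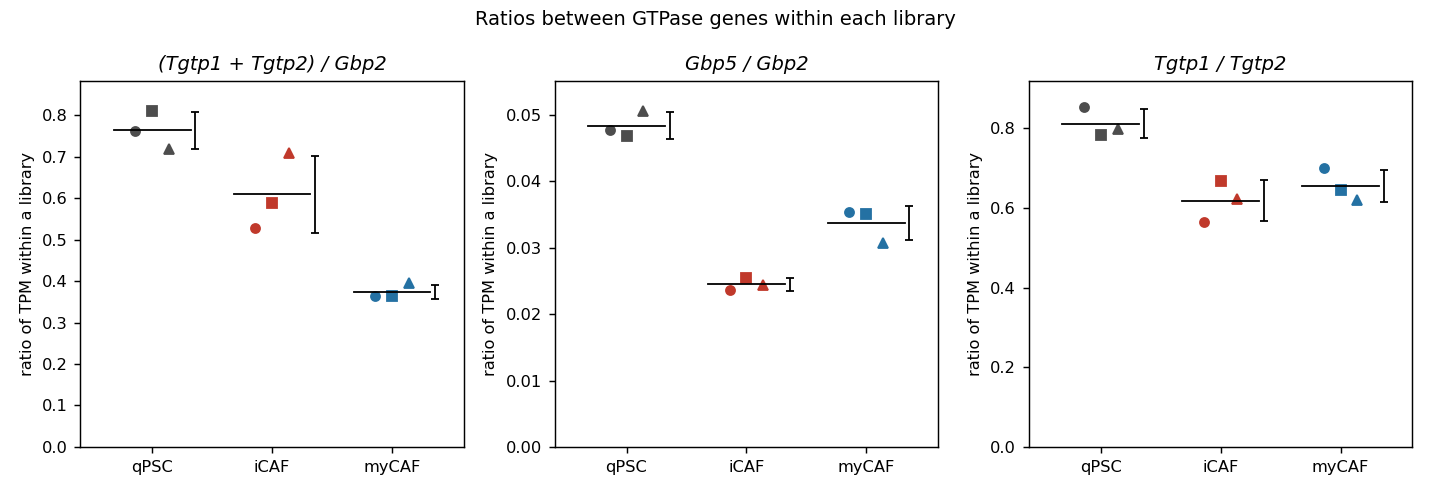
Ratio of TPM within a library (vertical axes, from 0) for Tgtp1 plus Tgtp2 over Gbp2, Gbp5 over Gbp2 and Tgtp1 over Tgtp2, by co-culture group (horizontal axes). Points are libraries, with shapes for replicate numbers as in the plot of levels, lines are means and bars are SD (n = 3); the Tgtp sum over Gbp2 is lowest in myCAF libraries and Gbp5 over Gbp2 is lowest in iCAF libraries.

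Other genes of the IRG and GBP families were listed by family. Of 15 listed, 14 were in the table and 9 were tested, while Gbp2b, Gbp8, Gbp10, Gbp11 and Irgc1 were under 1 TPM in every library. Limma called 1 of the 9 lower for iCAF against qPSC (0.598% of all genes), 0 of them for myCAF against qPSC, and 0 between iCAF and myCAF. The called gene was Gbp5, which promotes assembly of the NLRP3 inflammasome in mouse macrophages. It was at 4.60, 4.04 and 5.18 TPM with qPSC, at 1.40, 1.77 and 1.53 TPM with iCAF and at 2.57, 3.74 and 2.10 TPM with myCAF. Gbp5 fell by 1.13 ± 0.17 in the iCAF libraries (limma, adjusted p = 0.0268), a call that ended without iCAF 1, without myCAF 1 or without any 1 qPSC library, where the adjusted p ran from 0.0519 to 0.155. Against myCAF the same gene stood at -0.55 ± 0.17 (limma, adjusted p = 0.183). All its iCAF values lay below all its myCAF values, as for 18.3% of all tested genes.

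The other 8 tested genes of these families did not pass the threshold. Gbp9 was at 19.7, 18.3 and 18.2 TPM with qPSC, at 8.56, 11.1 and 4.88 TPM with iCAF and at 9.47, 13.8 and 9.70 TPM with myCAF, and its differences from qPSC were -1.17 ± 0.24 and -0.74 ± 0.24 (limma, adjusted p = 0.0800 and 0.487). Gm4951, a neighbour of Iigp1 on chromosome 18, stood at -0.98 ± 0.20 for iCAF and -0.95 ± 0.20 for myCAF against qPSC (limma, adjusted p = 0.0790 and 0.193). Ifi47, an IRG gene beside Tgtp2 on chromosome 11, stood at -0.72 ± 0.18 in both comparisons. Irgq, an IRG relative that is not known as an interferon target, was at 13.3 TPM with qPSC, 11.3 TPM with iCAF and 14.8 TPM with myCAF, with overlapping groups. Over the 9 tested genes the median was -0.72 for iCAF and -0.58 for myCAF against qPSC, with 9 and 8 negative values.

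Among larger GTPases that interferon induces, Mx1 and Mx2 were lower with iCAF. Mx1, an antiviral dynamin-like GTPase, was at 10.7, 8.64 and 9.80 TPM with qPSC, at 2.18, 3.27 and 2.34 TPM with iCAF and at 5.16, 6.26 and 3.90 TPM with myCAF. Mx2, its paralog, was at 13.6, 12.4 and 13.9 TPM with qPSC, at 4.24, 6.00 and 3.85 TPM with iCAF and at 9.31, 10.7 and 8.22 TPM with myCAF. In both genes the 3 groups did not overlap, with the myCAF values in between, unlike in the 10 GTPase genes. Of 3 listed genes, limma called these 2 lower for iCAF against qPSC, where 0.598% of all genes were called lower. Mx1 fell by 1.58 ± 0.17 (limma, adjusted p = 0.0112) and Mx2 fell by 1.35 ± 0.15 (limma, adjusted p = 0.0132). Both calls ended without iCAF 1 or without any 1 qPSC library, with limma adjusted p-values of 0.0632 to 0.0975. For iCAF against myCAF, Mx1 stood at -0.76 ± 0.17 and Mx2 at -0.88 ± 0.15 (limma, adjusted p = 0.123 and 0.0866). Gvin1, a very large GTPase, stood at -0.72 ± 0.25 for iCAF against qPSC (limma, adjusted p = 0.289).

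Upstream of the GTPase genes, the interferons themselves were hardly detected. All 10 listed ligand genes were under 1 TPM in every library, none was tested, and 5 were at 0 in all 9. Ifng had a value above 0 in 1 library, myCAF 3, at 0.0620 TPM. Ifnb1 was at 0.309, 0.327 and 0.826 TPM with qPSC, at 0.193, 0 and 0.241 TPM with iCAF and at 0.285, 0.215 and 0.321 TPM with myCAF. Limma called 0 of 7 receptor and kinase genes for iCAF against qPSC, where only 0.598% of all genes were called lower and 0.0% higher. Ifngr1 and Ifngr2, the receptor chains for interferon gamma, stood at -0.17 ± 0.13 and -0.23 ± 0.09, and Ifnar1 and Ifnar2, those for type I interferon, at -0.24 ± 0.16 and -0.26 ± 0.09. Jak1 stood at -0.43 ± 0.20 and Jak2 at -0.73 ± 0.21, with limma adjusted p-values of 0.324 and 0.2001.

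Among 7 tested interferon transcription factors limma called 1, Irf7, lower for iCAF against qPSC (0.598% of all genes). Irf7, itself induced by interferon and an amplifier of the type I response, was at 375, 353 and 369 TPM with qPSC, at 189, 248 and 183 TPM with iCAF and at 197, 270 and 220 TPM with myCAF. It fell by 0.84 ± 0.14 in the iCAF libraries (limma, adjusted p = 0.0410), a call that ended without iCAF 1, myCAF 1, myCAF 3 or any 1 qPSC library (adjusted p = 0.0519 to 0.204), and stood at -0.69 ± 0.14 in the myCAF libraries (limma, adjusted p = 0.193).

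Irf1, a factor that switches on many IRG and GBP genes after interferon gamma, did not follow the GTPase genes. It was at 59.3, 58.3 and 70.6 TPM with qPSC, at 55.2, 68.1 and 57.9 TPM with iCAF and at 68.2, 63.2 and 62.9 TPM with myCAF, with all groups overlapping. Its difference for iCAF against qPSC was -0.05 (95% interval -0.29 to 0.18), a value that turned to 0.14 with libraries centred on their median. For myCAF against qPSC it was 0.05 (-0.19 to 0.29).

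Of 5 feedback inhibitors limma called 1, Usp18, an enzyme that limits type I interferon signalling, lower for iCAF against qPSC (0.598% of all genes). It fell by 0.87 ± 0.11 (adjusted p = 0.0146), a call that ended without iCAF 1 or any 1 qPSC library (limma, adjusted p = 0.0809 to 0.0975). Of 13 listed partners of IRG proteins in autophagy and ubiquitin conjugation limma called 0 in any of the 3 comparisons, and at an unadjusted p under 0.05 it had 3 lower for iCAF against qPSC, where 13.9% of all genes were lower. Trim21 was the nearest, at -0.64 ± 0.14 (limma, adjusted p = 0.0966), whereas Gabarapl1 stood at -0.14 ± 0.13. Of 6 tested inflammasome partners limma called 0, with 3 lower at an unadjusted p under 0.05 for iCAF against qPSC (13.9% of all genes). Casp4 stood at -0.65 ± 0.18 and Aim2 at -0.02 ± 0.17.

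The genes whose pattern over the 9 libraries was most like that of the 10 members were ranked among 9383 other genes with a mean of at least 5 TPM. Likeness was the root mean square difference between a gene's centred log2(TPM + 1) and the members' mean. The closest was Irf7, at 0.08, followed by Zbp1 (0.09), Phf11d (0.10), Ube2l6 (0.12), Usp18 (0.13), Oas1g (0.14), Sp110 (0.14) and Sp100 (0.14). The median of the ranked genes was 0.42. The members themselves ran from 0.05 for Gbp3 to 0.27 for Tgtp1, so some outside genes lay closer to the members' mean than some members did. Zbp1, a sensor of nucleic acids in the Z form, was at 112 TPM with qPSC, 59.3 TPM with iCAF and 72.3 TPM with myCAF as group means. Limma also called Zbp1, Ube2l6 and Oas1g lower for iCAF against qPSC (adjusted p = 0.0268, 0.0465 and 0.0425), where 0.598% of all genes were called lower. The ranking used these same libraries, so values below qPSC were built into it and the calls are no separate support. Those 3 calls ended without iCAF 1, myCAF 3 or any 1 qPSC library, those of Ube2l6 and Oas1g also without myCAF 1, and that of Ube2l6 also without iCAF 2.

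Genes beside the GTPase genes had smaller median differences against qPSC, a contrast given without a test. Within 200000 bases of the 10 genes lay 24 further tested genes outside the lists of IRG and GBP genes. They include Gm12185 and Gm4841, gene models that share sequence with Tgtp1 and Tgtp2 and with Iigp1. Limma called 0 of the 24 for iCAF against qPSC, myCAF against qPSC and iCAF against myCAF. In that order 0.598%, 0.0% and 0.0598% of all genes were called lower. The 24 genes had lowest limma adjusted p-values of 0.116, 0.432 and 0.245. Their medians were -0.20, -0.02 and -0.18, against -0.87, -0.66 and -0.09 for the 10 members and -0.15, 0.01 and -0.15 for all tested genes.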

How the data were processed

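The 9 libraries (3 per group, grouped by sample titles) came from stranded mRNA library preparation, read as 50-base single ends, per the labels' protocols. The authors deposited TPM values for 41457 gene symbols in 1 table, and further columns with differences and fold changes that were not used. The submitters' processing notes name Salmon, R 4.0.1 and DESeq2 without saying what each did. The build is not given in the sources used here, nor is the annotation. Because TPM is relative to the rest of a library, an altered composition shifts every other gene.

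Of the symbols, 98.9% matched 1 gene model of GENCODE M21 (GRCm38). Multiplying TPM by exon length gave whole multiples of a library constant for 97.8% to 98.1% of genes below 200 reads (tolerance 0.05 reads), and so the implied reads. The exon length of Iigp1 did not give whole reads.

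Kept were genes reaching 1 TPM in 3 or more libraries. Their log2(TPM + 1) values entered limma 3.58.1 (R 4.3.3) by group, using the mean-variance trend and all libraries together. The threshold was an adjusted p (Benjamini-Hochberg, all tested genes) of 0.05. The log2(TPM + 1) scale understates fold changes of low genes. The script was tested on simulated data. Other settings were limma-voom on implied reads, centring, TMM factors, filters, pseudocounts, the 6 libraries compared, a replicate block, no trend, summed near-copies and each library left out.

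The members and lists were chosen with earlier results of these data known. The text names all members, related GTPase genes with a group mean of at least 1 TPM, fixed signalling genes, up to 4 called genes of each list and the 8 genes most like the members. Other genes, such as Dcn and Aim2, were named after their values were seen. Tables and figures used Python 3.11.15, pandas 2.3.3 and matplotlib 3.10.9.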

Additional observations from a re-analysis of the deposited data

How the results depend on the processing

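All 396 values of the 10 genes against qPSC under the alternatives were negative, and relative to the median of all genes the members' median ran from -0.82 to -0.63 for iCAF and from -0.85 to -0.58 for myCAF. Calls moved far more. For iCAF against qPSC, where 4 members, 1 other IRG or GBP gene and 70 of all genes were called, the counts in the same order were 0, 0 and 24 with libraries centred, 1, 0 and 36 with TMM factors, 0, 0 and 5 without a filter, 2, 1 and 30 with only the 6 libraries, and 2, 1 and 39 with limma-voom. Without the mean-variance trend 2 members, 1 other family gene and 53 of all genes were called. With at least 5 TPM required in 3 libraries, 4 members, 0 of the 4 other IRG and GBP genes still tested and 62 of all genes were called. Gbp5 was too low for that filter and was not tested there. Leaving out 1 library gave 0 to 10 members, 0 to 4 other family genes and 0 to 194 of all genes. For myCAF against qPSC, with 0 calls in the whole table, a fit of its 6 libraries alone gave 8 members, 3 other family genes and 378 of all genes, no filter gave 1 of all genes, and leaving out 1 library gave 0 to 8, 0 to 3 and 0 to 331. For iCAF against myCAF no setting called a member. There the 7 calls of all genes became 0 with centring or only the 6 libraries, 2 with TMM factors, 1 without a filter, with a pseudocount of 0.1, without the trend or with limma-voom, and 0 to 281 with 1 library left out. Some settings had fewer samples or other tested genes by design, and the cause of these shifts was not tested. For myCAF against qPSC, calls rose in the fit of 6 libraries and without iCAF 3. In both fits the members' median stayed at -0.66 and that of all genes at 0.01.

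The log2 difference between iCAF and myCAF turned positive for 5 members. With centring, TMM factors and limma-voom it was 0.16, 0.0972 and 0.11 for Gbp6, 0.0994, 0.0487 and 0.0586 for Irgm1, 0.14, 0.0930 and 0.10 for Igtp and 0.12, 0.0695 and 0.0797 for Iigp1, and with centring 0.0193 for Gbp3. With 1 library left out it ran from -0.28 to 0.0041 for Gbp3, -0.19 to 0.0985 for Gbp6, -0.18 to 0.0334 for Irgm1, -0.14 to 0.0935 for Igtp and -0.21 to 0.11 for Iigp1. Irf1 for iCAF against qPSC became 0.14, 0.0994 and 0.11 with centring, TMM factors and limma-voom, and ran from -0.14 to 0.0325 with 1 library left out. For myCAF against qPSC Irf1 ran from -0.00067 to 0.14 with 1 library left out. Ifngr1 for iCAF against qPSC became 0.0233 with centring.

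No clear pairing of the libraries by replicate number was seen. Same-numbered libraries of 2 groups deviated together (r over 0.1) in 2 of 9 pairs, and in 6 of 18 cases a library correlated best with its own number. These deviations, taken over all tested genes from group means of 3 libraries, cannot exclude a weaker pairing. With the number as a replicate block 1 member, 0 other family genes and 22 of all genes were called for iCAF against qPSC, and 0 of all genes in the other 2 comparisons.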
